A study of Homo sapiens with 28 samples.

Results

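The ABC export pumps described here are 10 human membrane transporters that use ATP to move drugs, conjugates, sterols and phospholipids out of the liver cell or across its membranes. They were taken by symbol: ABCB1, ABCB4, ABCC1, ABCC2, ABCC3, ABCC4, ABCG2, ABCG5, ABCG8 and ABCA1, each read by 1 amplicon among the 18961 amplicons of the table. The 28 libraries came from 4 human cell lines of liver tumours, with 3 libraries per line from cells in culture (in vitro) and 4 from tumours grown on the chick chorioallantoic membrane (in ovo). The carcinoma lines are Hep3B, HuH7 and PLC/PRF/5, while HepG2 was taken from a hepatoblastoma. White leghorn eggs received the cells at embryonic day 9, and the tumours were taken out at day 18. Culture RNA was extracted with a Mini RNeasy kit and tumour RNA with a Midi RNeasy kit, so kit and condition cannot be told apart. The column headers also carry a prefix of a letter and a number, and cultures and tumours share no such number. What the prefix stands for is not given, and its number cannot be told apart from condition either. The labels name no genetic change or drug in any group. Each line is a single established line, and a tumour can hold chick host cells beside the grafted human ones.

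In the hepatocyte these pumps sit on opposite faces of the cell. ABCB1, ABCB4, ABCC2, ABCG2 and the ABCG5-ABCG8 pair face the bile canaliculus and load bile with drugs, phosphatidylcholine, organic anion conjugates and sterols. ABCC3 and ABCC4 face the blood and carry conjugates and bile salts back to it, and ABCC1 is a conjugate pump that is low in resting hepatocytes and common in dividing cells. ABCA1 also faces the blood and hands cholesterol and phospholipid to apolipoprotein A-I, the first step in making high-density lipoprotein. ABCG5 and ABCG8 work only as a pair. The question the design puts is how far the level of each pump differs between culture and tumour in each line.

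Every level rests on reads of 1 short coding amplicon, so the letters read are shown for the pumps on which the results turn. Positions are on GRCh38 with GENCODE 29. The ABCC2 amplicon lay in exons 25 to 26 (chr10:99836132-99842009), that of ABCC3 in exon 23 (chr17:50676344-50676473) and that of ABCC4 in exon 11 (chr13:95186781-95186870). The ABCG5 amplicon lay in exons 10 to 11 (chr2:43820038-43822915, minus strand), that of ABCG8 in exon 6 (chr2:43852618-43852729, plus strand) and that of ABCA1 in exons 37 to 38 (chr9:104796323-104798507). Sequences run 5′ to 3′ along the transcript, and a switch from lower case to capitals marks the exon junction inside an amplicon.
ABCC2: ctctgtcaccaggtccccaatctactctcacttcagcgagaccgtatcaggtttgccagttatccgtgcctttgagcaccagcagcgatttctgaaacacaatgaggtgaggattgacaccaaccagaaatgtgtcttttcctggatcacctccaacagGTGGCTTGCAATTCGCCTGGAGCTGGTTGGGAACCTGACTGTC
ABCC3: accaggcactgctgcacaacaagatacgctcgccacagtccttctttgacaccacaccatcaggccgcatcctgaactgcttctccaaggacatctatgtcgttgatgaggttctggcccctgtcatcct
ABCC4: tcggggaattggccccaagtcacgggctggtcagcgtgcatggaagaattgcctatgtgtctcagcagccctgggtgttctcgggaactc
ABCG5: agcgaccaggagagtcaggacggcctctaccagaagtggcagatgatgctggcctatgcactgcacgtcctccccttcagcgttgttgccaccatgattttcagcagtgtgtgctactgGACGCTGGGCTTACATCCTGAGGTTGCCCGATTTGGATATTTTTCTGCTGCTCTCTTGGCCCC
ABCG8: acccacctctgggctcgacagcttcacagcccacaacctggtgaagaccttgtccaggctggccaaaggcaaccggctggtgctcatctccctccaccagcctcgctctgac
ABCA1: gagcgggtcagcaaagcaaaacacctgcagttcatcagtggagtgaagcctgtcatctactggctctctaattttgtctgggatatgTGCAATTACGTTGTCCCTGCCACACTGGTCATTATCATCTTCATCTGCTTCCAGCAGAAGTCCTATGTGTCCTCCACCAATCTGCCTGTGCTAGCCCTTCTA

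All 10 amplicons lay wholly in coding sequence and matched transcripts of their own gene only, though not always every one. Coding transcripts matched were 1 of 4 for ABCG2, 1 of 3 for ABCA1, 2 of 7 for ABCC2 and 3 of 9 for ABCC3. They were 3 of 4 for ABCB1 and 7 of 9 for ABCB4, and all of them for the other pumps. Shifts between transcripts of a gene were not tested. The remaining amplicons were those of ABCB1 in exons 26 to 27 (chr7:87505964-87509438), ABCB4 in exons 15 to 16 (chr7:87426829-87431467), ABCC1 in exons 22 to 23 (chr16:16111518-16114873) and ABCG2 in exons 13 to 14 (chr4:88095548-88097530). Within the ABC family the closest match was that of the ABCB1 amplicon to ABCB4, with 196 of 244 bases identical. The sequence of the ABCB1 amplicon is shown because it separates these relatives, with the 48 bases at which ABCB4 differs in capitals.
ABCB1: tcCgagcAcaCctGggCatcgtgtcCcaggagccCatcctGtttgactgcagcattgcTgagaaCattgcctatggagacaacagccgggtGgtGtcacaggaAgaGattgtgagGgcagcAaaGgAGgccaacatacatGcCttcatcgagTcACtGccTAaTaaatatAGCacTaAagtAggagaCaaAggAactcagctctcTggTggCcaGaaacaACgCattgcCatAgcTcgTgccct
The ABCG2 amplicon was identical at 122 of 140 aligned bases to the pseudogene transcript AC027088.4. How reads of such copies were assigned is not given in the sources used here.

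ABCG5 and ABCG8 lie head to head on chromosome 2. Their GENCODE models overlap on opposite strands for 6924 bases (chr2:43831942-43838865), and neither amplicon lies in that overlap. Between the first bases of their RefSeq transcripts lie 131 bases, shown because both genes start from them (RefSeq, GRCh38.p14, chr2:43838840-43838970, plus strand). The capitals mark the letters AGATAA, the core of a GATA motif, read on the minus strand.
ABCG5-ABCG8 between starts: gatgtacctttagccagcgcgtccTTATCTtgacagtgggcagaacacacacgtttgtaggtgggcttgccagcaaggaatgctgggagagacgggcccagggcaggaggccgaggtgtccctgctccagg
RefSeq promoter windows, 250 bases before to 50 after a start, were given for 7 of the 10 pumps and not for ABCB4, ABCC1 and ABCC3. AGATAA, searched on both strands, occurred 2 times in the ABCG5 window and 2 times in the ABCG8 window, which overlap, and in 10.33% of all 35116 windows. The other motifs searched on both strands were the nuclear receptor half-site AGGTCA (13.83% of windows), its direct repeats DR1 and DR4, which contain it (0.02% each), the antioxidant response core TGACNNNGC (13.35%), the TATA box TATAAA (11.53%) and the Sp1 core GGGCGG (44.95%). None of their letters occurred in the ABCG5 and ABCG8 windows. A match describes the letters and is not a site shown to be bound, and a lack of one says nothing of the factor.

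Levels are given as CPM, in which every library has the same fixed total, after TMM scaling, which sets libraries against each other by the bulk of their genes. A change is the in ovo value less the in vitro value of log2(CPM + 1), so for low genes it is smaller than the true fold. They come from limma with p values adjusted by Benjamini-Hochberg over the 13100 genes that passed the filter on low reads. All 10 pumps passed it, and a change was called at an adjusted p under 0.05. An amplicon has its own yield, so levels are compared between groups for 1 pump, not between pumps. Separate cultures or eggs are not named in the labels for the libraries of a group. The p values therefore rest on a spread between libraries that may be technical. In bulk samples such as these, fewer cells of a type and less RNA per cell cannot be told apart.

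Culture libraries held 6205368 to 8662998 reads and tumour libraries 6085750 to 15086465, so that 3 reads, taken as the floor, stood for 0.199 to 0.493 CPM before TMM scaling. The summed level of 10 hepatocyte markers went from 31180 to 32990 CPM across Hep3B cultures to 177200 to 326300 across its tumours. It was 91140 to 98100 against 152800 to 269400 in HepG2, 25550 to 26030 against 10070 to 15270 in HuH7, and 6217 to 7581 against 4241 to 10660 in PLC/PRF/5. Of the 10 hepatocyte markers, 7 were called higher and 2 lower in Hep3B, 4 and 2 in HepG2, and 0 and 7 in HuH7. In PLC/PRF/5, where ALB and TTR were at 0 reads in culture, 6 were called higher and none lower, with a median change of 4.34 although the sums overlapped. Genes unread in PLC/PRF/5 cultures and abundant in HepG2 tumours all had traces in PLC/PRF/5 tumours, as described below for ABCG8. The part of such traces in this count was not tested. Endothelial markers summed to 4.31 to 5.15 CPM in Hep3B cultures, where CDH5, VWF and TIE1 were at 0 reads, and to 10.8 to 12.8 in the tumours, where each of these had reads in at least 1 library. Their sums were 40.7 to 48.6 against 51.9 to 66.1 CPM in HepG2, 23.6 to 25.2 against 9.70 to 28.03 in HuH7 and 9.23 to 10.5 against 8.69 to 17.8 in PLC/PRF/5. Of the 4 endothelial markers tested, 2 were called higher in HepG2 and in PLC/PRF/5 and 1 in Hep3B and in HuH7, and 1 lower in HepG2 and in HuH7, while KDR and EMCN were at 0 reads in all 8 groups. The single red-cell marker tested was called higher in HepG2 alone, where the summed level was 0 to 0.421 CPM in culture and 1.45 to 2.86 in ovo, and ALAS2 and EPB42 were at 0 reads in all 8 groups. Leukocyte markers summed to 384 to 401 CPM in HepG2 cultures and 9.59 to 65.95 in its tumours, with 3 of 6 called lower. Cholangiocyte markers summed to 1704 to 1872 CPM in HuH7 cultures and 2220 to 6348 in its tumours, with 5 of 9 called higher and 1 lower. The sum over 10 fibroblast markers went from 522.8 to 542.9 CPM in HuH7 cultures to 1220 to 1613 in its tumours and from 154.8 to 160.3 to 285.5 to 558.5 in Hep3B, while it was lower in the tumours of the other lines. Of 7 fibroblast markers tested, 4 were called higher and 1 lower in HuH7, and 2 and 2 in Hep3B, where the median change was 0. The same counts were 1 and 2 in HepG2 and 1 and 3 in PLC/PRF/5. The shares of all tested genes called in each line, against which these marker counts stand, are given with the pump counts below. The part of marker levels in the pump results was not tested.

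The pumps did not move as a block: each line had its own set of changes. In HepG2, 7 of the 10 pumps fell and 1 rose, where 25% of all tested genes were called, 12.4% lower and 12.6% higher. The 10 pumps had a median change of -0.91 there, and all tested genes one of 0. In Hep3B 4 pumps rose and 3 fell, where 52% of all genes were called, 25.3% higher and 26.7% lower, and the medians were 0.48 for the pumps and -0.03 for all genes. In HuH7 3 pumps rose and 4 fell, where 43.4% of all genes were called, 23.9% higher and 19.5% lower, and the medians were 0.05 and 0.02. In PLC/PRF/5 1 pump rose and 2 fell, where 17.3% of all genes were called, 11.7% higher and 5.62% lower, and the medians were 0.29 and 0.07. Cultures and tumours did not overlap for 8 pumps in HepG2 and 7 in HuH7, where the shares of all genes were 39.2% and 48.5%. The pumps without overlap numbered 5 in Hep3B (55.7% of all genes) and 6 in PLC/PRF/5 (39.7%). ABCG8 was called higher in all 4 lines, as were 1.55% of all tested genes, and ABCC4 was called lower in all 4, as were 0.603%.

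**Figure D1:**
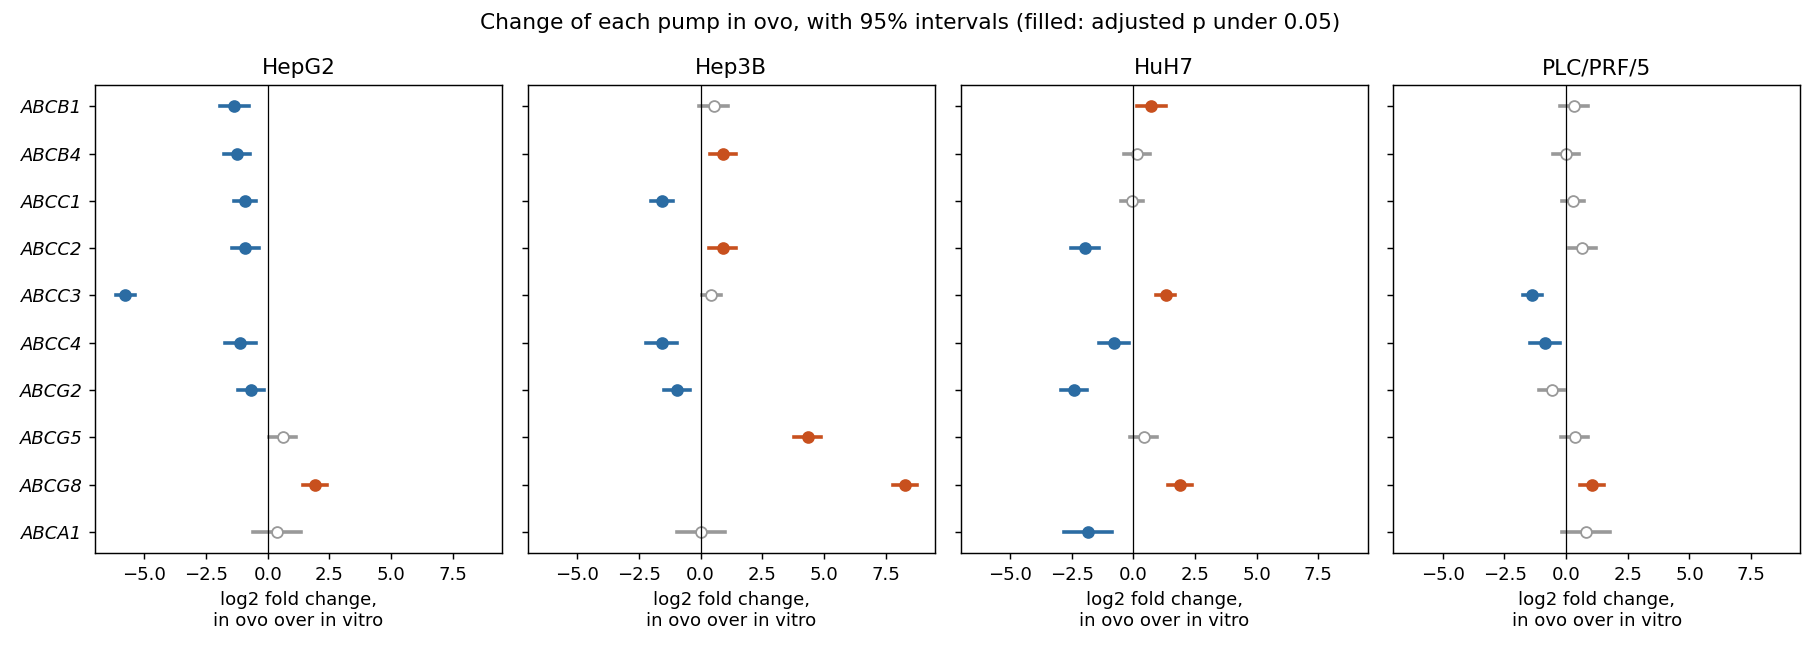
Change of each pump in each line as the log2 difference in ovo minus in vitro on the log2(CPM + 1) scale (horizontal axis), with bars for 95% intervals and filled points where the adjusted p was under 0.05. ABCG8 lies right of 0 in all 4 panels and ABCC4 left of 0, whereas ABCC3 lies far left in HepG2 (-5.77) and right in HuH7 (1.31).

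The drug pump ABCB1, known as P-glycoprotein or MDR1, fell in HepG2 tumours. Its level was 35.3, 34.8 and 36.7 CPM in the HepG2 cultures and 9.89, 11.9, 20.8 and 12.8 in the tumours. All 4 tumours lay below all 3 cultures, and the change was -1.35 (SE 0.28, limma adjusted p = 0.00081). In HuH7 the pump rose, from 17.4, 19.5 and 18.8 CPM to 23.4, 39.7, 28.996 and 36.8, again without overlap. That change was 0.73 (SE 0.28, limma adjusted p = 0.0385), and the call held under 7 of 12 alternative analyses, whose adjusted p ran from 0.00066 to 0.277. Without any 1 of 6 of the 7 HuH7 libraries the call was lost as well. Hep3B tumours were uneven, at 30.3, 12.8, 10.5 and 24.1 CPM against 12.9, 12.2 and 11.05 in the cultures, and the change of 0.53 was not called (adjusted p = 0.12). It was called at 0.72 without Hep3B tumour 3, and it turned to -0.40 when libraries were scaled by their totals alone, with adjusted p values of 0.00013 to 0.338 over the 12 alternatives. PLC/PRF/5 had next to none, with 2 to 3 reads in each culture and 3 to 10 in each tumour.

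ABCB4, the neighbour of ABCB1 on chromosome 7, flips phosphatidylcholine into bile and had fewer reads than ABCB1, though yields differ between amplicons. It fell in HepG2, where the cultures had 3.79, 6.61 and 6.40 CPM and the tumours 1.199, 1.29, 2.04 and 2.63. The tumours lay below the cultures, and the change was -1.24 (SE 0.26, limma adjusted p = 0.00071). In Hep3B it rose from 1.04, 1.76 and 0.884 CPM to 3.71, 2.82, 1.34 and 5.86. Here tumour 3 fell among the cultures, the change was 0.91 (SE 0.26, limma adjusted p = 0.0051), and the call was lost when libraries were scaled by their totals alone (0.28) or the line was fitted alone (adjusted p up to 0.398 over 11 alternatives). HuH7 cultures and tumours overlapped, between 1.41 and 2.68 CPM. PLC/PRF/5 gave 0 reads in all 7 libraries, which allows a level of up to 3 reads per library, on average 0.309 CPM in its cultures and 0.304 in its tumours.

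**Figure D2:**
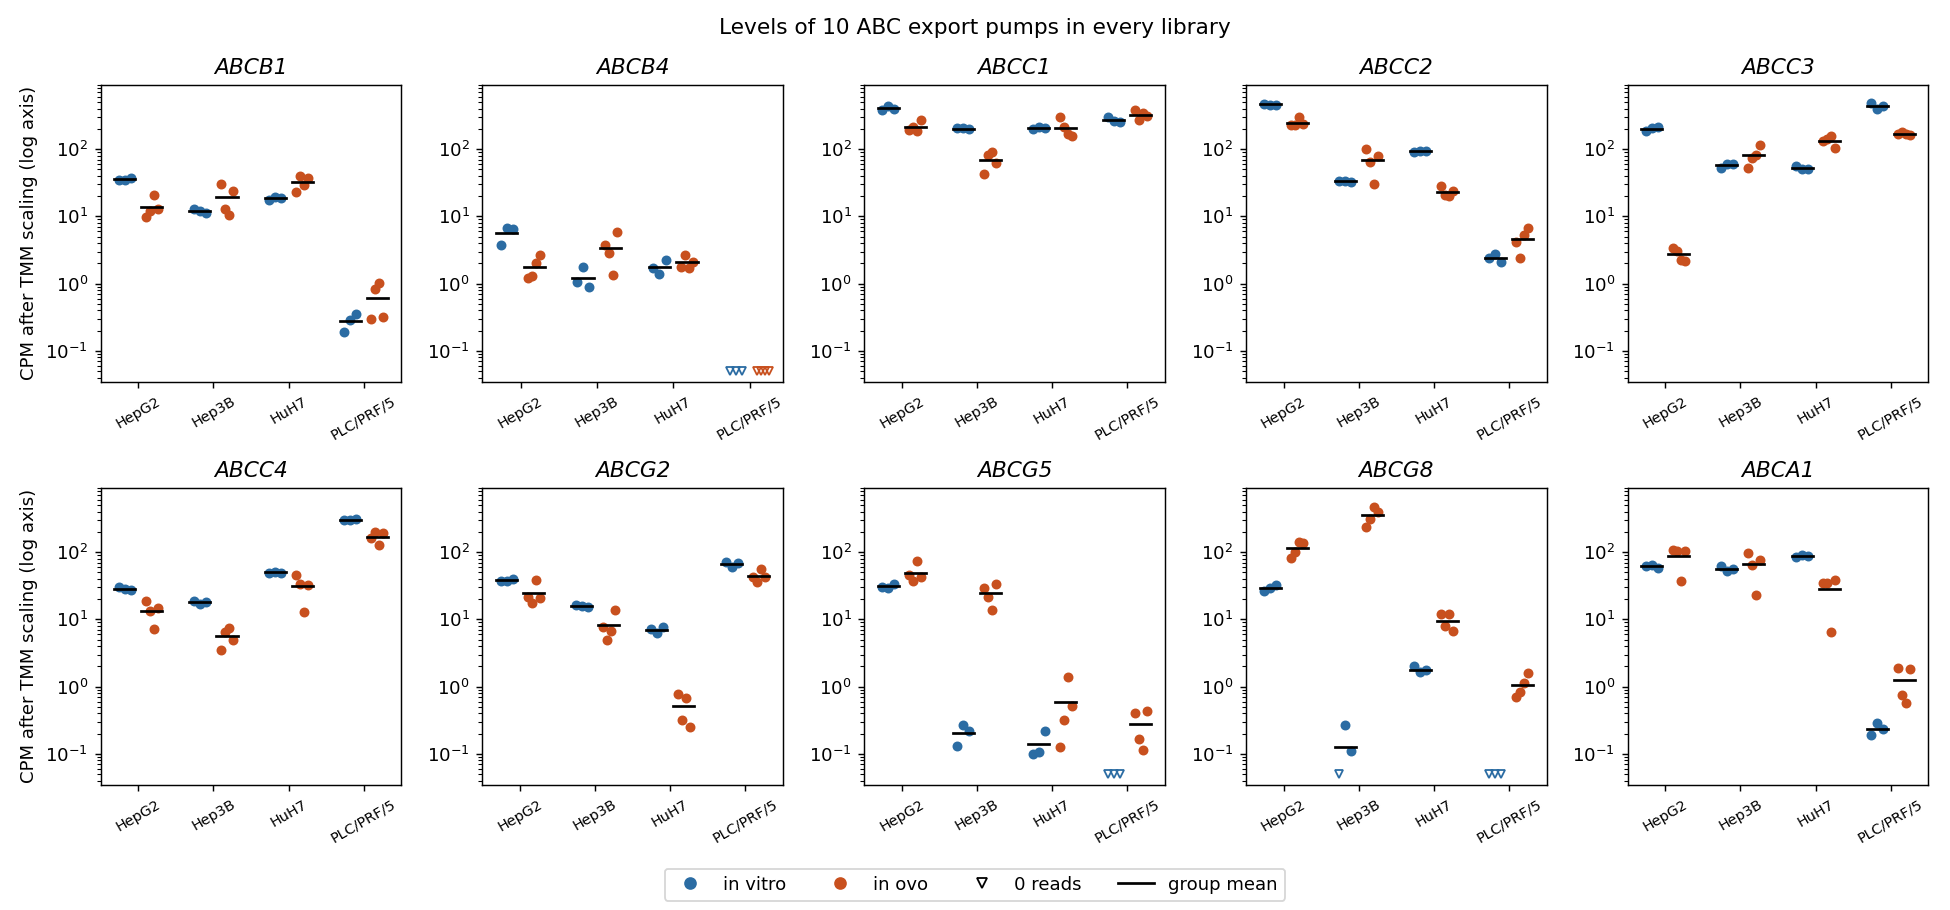
Levels of the 10 pumps in every library, in CPM after TMM scaling on a log axis, by line, with cultures in blue, tumours in orange, a bar for each group mean and open triangles near the bottom for libraries with 0 reads. Hep3B tumours stand far above Hep3B cultures for ABCG5 and ABCG8, and HepG2 tumours far below HepG2 cultures for ABCC3.

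Among the conjugate pumps, ABCC1 (MRP1) fell in 2 lines and was not called in the other two. HepG2 cultures had 384, 433 and 392 CPM and the tumours 192, 216, 186 and 270, all below the cultures (-0.91, SE 0.22, limma adjusted p = 0.0026). Hep3B went from 204, 206 and 197 CPM to 42.7, 82.8, 90.3 and 62.6, again with no overlap (-1.58, SE 0.22, adjusted p = 2.29e-06). In HuH7 the tumours spread on both sides of the cultures, from 158 to 298 CPM against 199.8 to 215, and the change was -0.04 with a 95% interval of -0.48 to 0.41. PLC/PRF/5 tumours lay between 269 and 380 CPM and cultures between 254 and 297, with a change of 0.27 and an interval of -0.18 to 0.71.

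ABCC2 (MRP2), which pumps bilirubin glucuronide and other conjugates into bile, ran in opposite directions in different lines. It fell in HepG2, from 471, 458 and 457 CPM to 230.4, 226, 296 and 239, with no overlap (-0.90, SE 0.27, limma adjusted p = 0.0151). That call was lost without HepG2 culture 1 and with GC and amplicon length trends removed (-0.55), and the adjusted p ran from 0.00051 to 0.119 over 12 alternatives. It fell further in HuH7, from 91.7, 94.4 and 94.9 CPM to 28.2, 21.0, 20.1 and 24.3 (-1.97, SE 0.27, adjusted p = 3.33e-06). In Hep3B it rose by 0.90 (SE 0.27, adjusted p = 0.0079), which turned to -0.09 when libraries were scaled by their totals alone and was not called with the line fitted alone (adjusted p = 0.099). The Hep3B tumours were at 101, 64.6, 30.4 and 79.9 CPM against 33.4, 34.1 and 32.9 in the cultures, so that tumour 3 lay below the cultures. The choice of scaling matters most in Hep3B: totals alone moved the median of all genes there by -0.71, against -0.14 to -0.18 in the other lines. PLC/PRF/5 had 2.10 to 2.76 CPM in culture and 2.42 to 6.71 in ovo, a change of 0.66 that was not called (adjusted p = 0.0949). The change was called without PLC/PRF/5 tumour 2 (0.88) and by edgeR (0.91, adjusted p = 0.0476). In limma it was also called without the tumours labelled replicate 3 (0.60, adjusted p = 0.0244). Removing GC and amplicon length trends gave a call as well (0.76, limma adjusted p = 0.0421).

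ABCC3 (MRP3), which sends glucuronides back to the blood and is known to be induced when bile flow fails, gave both the steepest fall and a rise. In HepG2 the cultures stood at 189, 205 and 210 CPM and the tumours at 3.45, 3.07, 2.24 and 2.17, and 4926 reads in 3 libraries compared with 67 in 4. The change was -5.77 (SE 0.19, limma adjusted p = 1.46e-16), and the call held in all 12 alternatives. HuH7 tumours moved the other way, from 56.6, 51.3 and 50.5 CPM to 132, 143, 158 and 102 (1.31, SE 0.19, adjusted p = 7.94e-06). PLC/PRF/5 had the highest culture level of the 4 lines, 486, 399.8 and 437 CPM, and fell to 166, 181, 167 and 164 (-1.37, SE 0.19, adjusted p = 9.82e-06). The PLC/PRF/5 tumours were within a narrow band far below the cultures. In Hep3B the groups overlapped, at 51.7, 60.9 and 59.4 against 51.9, 73.8, 82.5 and 116 CPM. That change was 0.44 (adjusted p = 0.0584) and became -0.56 when libraries were scaled by their totals alone and 0.63, called, without Hep3B tumour 1, with adjusted p values of 0.0247 to 0.203 over the 12 alternatives.

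ABCC4 (MRP4), which exports cyclic nucleotides, prostaglandins and bile salts, was the pump called lower in every line. It fell in HepG2 from 30.3, 28.4 and 27.4 CPM to 18.7, 13.2, 7.14 and 14.6 (-1.11, SE 0.30, limma adjusted p = 0.0075). It fell in Hep3B from 18.7, 17.1 and 18.4 CPM to 3.50, 6.41, 7.53 and 4.92 (-1.57, SE 0.30, adjusted p = 0.000146). No tumour overlapped the cultures in either line, and the HepG2 call held in 11 of 12 alternatives (adjusted p up to 0.0505). The HuH7 values were 49.7, 51.4 and 49.4 against 46.0, 33.6, 13.0 and 32.5 CPM, with tumour 3 the lowest. The HuH7 change was -0.79 (adjusted p = 0.036). Without tumour 3 it was -0.43, and it was not called then or without any 1 of the 3 cultures. PLC/PRF/5, the line with the most ABCC4, went from 305, 299.9 and 309 CPM to 165, 196, 127 and 191 (-0.86, adjusted p = 0.0492). No group overlapped in these lines either, but the calls in HuH7 and PLC/PRF/5 each held in 10 of 12 alternatives, with adjusted p values up to 0.169 and 0.0653. The PLC/PRF/5 call was also lost without any 1 of 6 of its 7 libraries.

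ABCG2 (BCRP), a canalicular pump for drugs, urate and porphyrins, fell in 3 lines. The clearest fall was in HuH7, where the cultures had 7.10, 6.19 and 7.62 CPM and the tumours 0.771, 0.322, 0.686 and 0.255, that is 198 reads against 16. The change was -2.41 (SE 0.25, limma adjusted p = 5.26e-08). Hep3B went from 16.3, 15.8 and 15.5 CPM to 7.63, 4.87, 6.72 and 13.6, with all tumours below the cultures (-0.96, adjusted p = 0.0028), a call lost with GC and amplicon length trends removed (-0.33). In HepG2 tumour 3, at 38.3 CPM, lay among the cultures at 37.7, 37.0 and 39.8, while the others were at 21.6, 17.8 and 20.6. The HepG2 change of -0.68 was just called (adjusted p = 0.0494) and held in 6 of 12 alternatives, whose adjusted p ran from 0.0029 to 0.339, and it was lost without any 1 library except tumour 3. PLC/PRF/5 tumours, at 43.1, 35.9, 56.3 and 43.3 CPM, were all below its cultures at 72.4, 59.5 and 69.2, but the change of -0.59 was not called (adjusted p = 0.11, 0.0184 to 0.448 over 12 alternatives, 5 of which called it).

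The sterol pump ABCG5-ABCG8, which returns plant sterols and cholesterol to bile, gave the steepest rise of the list. In Hep3B cultures ABCG8 was at or near nothing, with 0, 2 and 1 reads, and in the tumours it had 2262, 1229, 1768 and 1706 reads, or 239.6, 315, 475 and 399.9 CPM. ABCG5 went with it, from 1, 2 and 2 reads to 281, 85, 51 and 143, or 29.8, 21.8, 13.7 and 33.5 CPM in the tumours. Both members of the pair were thus read in all 4 Hep3B tumours and scarcely in the cultures. The pooled ratio of reads, set against the scaled library sizes, was 2624 for ABCG8 (95% counting interval 897 to 12725) and 127 for ABCG5 (53.9 to 391), intervals that cover counting error only. The fitted changes were 8.27 (SE 0.24, limma adjusted p = 2.34e-18) and 4.34 (SE 0.26, adjusted p = 2.47e-12), values that depend on the added 1 CPM.

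HepG2 was the line with both partners well read in culture, and there ABCG8 rose while ABCG5 was not called. ABCG8 went from 26.4, 29.8 and 32.8 CPM to 83.2, 102, 143 and 139 (1.91, SE 0.24, limma adjusted p = 1.10e-06). ABCG5 went from 30.4, 29.6 and 33.5 CPM to 45.0, 37.8, 72.6 and 42.7, with no overlap but a change of 0.61 that was not called (adjusted p = 0.0939, 0.0283 to 0.412 over 12 alternatives). In HuH7, ABCG8 rose from 2.00, 1.63 and 1.74 CPM to 11.8, 7.94, 11.8 and 6.81 (1.89, SE 0.24, adjusted p = 9.18e-07). HuH7 ABCG5 stayed at the edge of detection, with 1 to 2 reads in each culture and 1 to 8 in each tumour.

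In PLC/PRF/5 tumours ABCG8 was called higher at a level close to the floor. The cultures had 0 reads and the tumours 7, 10, 10 and 15, or 0.704, 0.835, 1.13 and 1.62 CPM, at least 3.47-fold above a floor of 3 reads per culture library (1.03, SE 0.24, limma adjusted p = 0.0031). ABCG5 had 0 reads in the cultures and 4, 2, 1 and 4 in the tumours, and was not called (adjusted p = 0.414), though it was by edgeR (adjusted p = 0.0137), by DESeq2 (adjusted p = 0.0236) and with the line fitted alone (adjusted p = 0.0422). The ABCG8 call was lost with a pseudocount of 5 CPM (0.28). Similar traces were read for other genes of the liver lines. Of the 27 genes at 0 reads in PLC/PRF/5 cultures and at 100 CPM or more in HepG2 tumours, ABCG8 among them, all 27 had reads in PLC/PRF/5 tumours, at a median of 0.837% of the HepG2 tumour level (quartiles 0.775% and 1.03%). The PLC/PRF/5 tumour level of ABCG8 was 0.919% of that in HepG2 tumours and that of ABCG5 0.563%. Against Hep3B tumours the median over 29 such genes was 0.262% (quartiles 0.141% and 0.494%), with ABCG8 at 0.300% and ABCG5 at 1.13%. Against HuH7 tumours it was 0.217% over 16 genes, with ABCG8 at 11.2% and ABCG5 at 47.8%. The difference between PLC/PRF/5 tumours and cultures came to 1.17% of the HepG2 tumour level for ABCA1 and 0.892% for ABCC2. It came to 2.48% for ABCB1 and 26.4% for ABCC1. Of these pumps, ABCC2 and ABCG8 lay within the HepG2 quartiles, ABCG5 below them, and ABCA1, ABCB1 and ABCC1 above them. There was no difference for ABCB4, and it was negative for ABCC3, ABCC4 and ABCG2. Where these reads came from was not tested. The corresponding difference for ABCG8 in HuH7 was 6.69% of the HepG2 tumour level and 2.19% of that of Hep3B.

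ABCA1, the sterol pump on the blood side, fell in HuH7 and was not called elsewhere. HuH7 cultures were at 85.4, 91.5 and 88.6 CPM and the tumours at 34.3, 34.3, 6.52 and 38.8, all below (-1.86, SE 0.47, limma adjusted p = 0.0031, up to 0.0596 over 12 alternatives). In HepG2 the tumours had 107, 105, 36.9 and 104 CPM around cultures at 62.7, 63.8 and 58.9, and the change of 0.39 had an interval of -0.58 to 1.36. Hep3B tumours were at 97.7, 65.1, 22.8 and 76.4 CPM and cultures at 62.0, 53.0 and 55.5, with a change of 0.03 and an interval of -0.94 to 1.00. The sign of that change differed between alternatives, with values of -0.95 to 0.95. PLC/PRF/5 cultures had 2, 3 and 2 reads and the tumours 19, 9, 5 and 17, without overlap. That change of 0.82 was not called (adjusted p = 0.258), a result kept in 6 of 12 alternatives. It was called higher by edgeR (2.33, adjusted p = 0.0415) and by DESeq2 (2.29, adjusted p = 0.0138). The same held for limma with a pseudocount of 0.25 CPM (adjusted p = 0.0439) or with the line fitted alone (adjusted p = 0.047).

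In each line the tumour with the lowest ABCA1 was the one labelled replicate 3. The same held for 806 of 7176 genes averaging at least 10 CPM (11.2%). In those 4 libraries the deviation of genes from the other tumours followed the GC content of the amplicon, with Spearman's rho across genes of 0.307 to 0.374, genes not being independent replicates. With the length of the amplicon, rho was -0.670 in Hep3B, -0.412 in HuH7, -0.297 in HepG2 and 0.0452 in PLC/PRF/5. Without these libraries ABCA1 was called higher in HepG2 (0.78), Hep3B (0.45) and PLC/PRF/5 (1.01), with adjusted p values over the alternatives of 0.0007 to 0.914, 0.0083 to 1 and 7.38e-05 to 0.776. Leaving out the tumour with the lowest ABCA1 raises the tumour mean, so these calls follow in part from how the libraries were picked. No other pump was lowest in replicate 3 of every line, and ABCC4 was so in 3. In the labels these 4 libraries share the letter D, as the 4 tumours numbered 4 share E, whereas numbers 1 and 2 mix the letters A, B and C. The labels do not say what the numbers and letters stand for. By Pearson's r between whole libraries, tumour 3 was in the least alike pair of tumours in each line. In Hep3B, though, tumours 2 and 3 were also the most alike pair (0.980). The GC, length and lowest-gene values were worked out for replicate 3 alone. Whether it stands apart from the other numbers, and what lay behind its deviations, was not tested.

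The lines also ranked differently for each pump, as the plot of levels in every library shows. PLC/PRF/5 cultures had the highest level of ABCC3, ABCC4 and ABCG2 among the 8 groups, with no overlap with the next group, and both groups of PLC/PRF/5 were the lowest for ABCB1, ABCB4, ABCC2 and ABCA1. HepG2 cultures had the highest ABCC2 at 462 ± 7.67 CPM (SD, n = 3), above its own tumours at 248 ± 32.3 (SD, n = 4), and HuH7 cultures followed at 93.7 ± 1.75 (SD, n = 3). ABCC1 spread least, and its groups between 327 and 202 CPM overlapped with their neighbours in order. For ABCB1, the 6 groups of HepG2, HuH7 and Hep3B formed a run from 35.6 to 12.1 CPM in which each overlapped with the next. Of neighbours in order for ABCG8, only Hep3B and PLC/PRF/5 cultures overlapped, though the lowest HuH7 culture, at 1.63 CPM, lay barely above the highest PLC/PRF/5 tumour, at 1.62 CPM.

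Whether the response differed between lines was tested as the line by condition interaction. The response differed for 9 of the 10 pumps, as it did for 41.7% of all tested genes. The smallest p values were those of ABCC3 (limma adjusted p = 4.36e-15), ABCG8 (4.15e-14) and ABCG5 (3.33e-09). ABCC4 was the exception (adjusted p = 0.371), but its result turned on the libraries labelled replicate 3: without those 4 tumours it was 0.000184, and without the HuH7 one alone 0.0423, in a range of 0.000184 to 0.72 over 10 alternatives. Set against the mean of the other lines, the ABCC3 response differed by -5.90 in HepG2 (adjusted p = 2.57e-15), a contrast in which 20.1% of all genes were called. The ABCG8 response differed by 6.66 in Hep3B (adjusted p = 7.47e-15, 25.5% of all genes called). In HuH7, where 19.5% of all genes were called, the responses of ABCC3, ABCG2 and ABCA1 differed by 3.55, -1.67 and -2.27 (adjusted p = 1.30e-11, 0.000112 and 0.0034).

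Ratios of pumps inside a library do not depend on scaling, but the ratio itself carries the yields of the amplicons. Its changes compare groups only where relative yields hold between libraries. The tumours labelled replicate 3 deviated with amplicon GC content and, in some lines, length, and the paired amplicons differ in both. In HepG2, removing those trends took the ABCG8 change from 1.91 to 1.66 and that of ABCG5 from 0.61 to 0.82, then called. The ratios were not worked out again. The ratio of blood-side ABCC3 to canalicular ABCC2 was 0.401, 0.447 and 0.460 in HepG2 cultures and 0.015, 0.0136, 0.00759 and 0.00906 in the tumours. In HuH7 it moved the opposite way, from 0.617, 0.544 and 0.532 to 4.70, 6.82, 7.88 and 4.22. In PLC/PRF/5 it was 145 to 208 in culture and 24.4 to 74.6 in ovo. Cultures and tumours did not overlap in any of these lines, and in Hep3B they did (1.55 to 1.81 against 0.515 to 2.72). The ratio of ABCG8 to ABCG5 was 0.866 to 1.00 in HepG2 cultures and 1.85 to 3.25 in the tumours, and it was 8.05 to 34.7 in Hep3B tumours. In HuH7, where ABCG5 had few reads, it overlapped, at 8 to 20 in culture and 8.63 to 92.0 in ovo (two-sided exact permutation p = 0.543). ABCB1 over ABCB4 overlapped between cultures and tumours in the 3 lines where both were read. Of 9 such comparisons, the 4 without overlap gave p = 0.0286 in a two-sided exact permutation test over libraries, the smallest the design allows, which becomes 0.0643 after Benjamini-Hochberg adjustment over the 9.

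**Figure D3:**
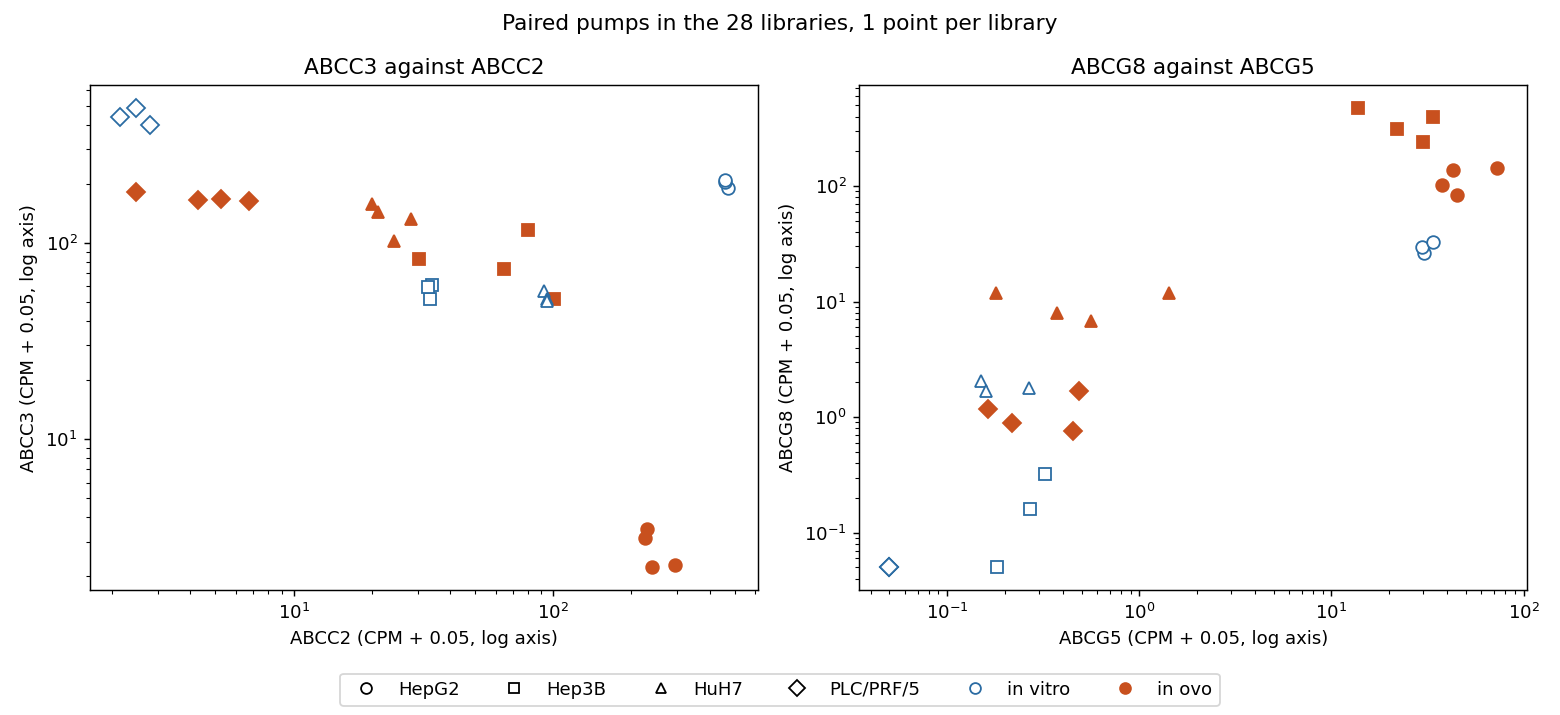
ABCC3 against ABCC2 (left) and ABCG8 against ABCG5 (right) in the 28 libraries, 1 point per library, in CPM + 0.05 on log axes; shapes mark lines, open blue points cultures and filled orange points tumours. HepG2 tumours drop to an ABCC3 level of 2.17 to 3.45 CPM at high ABCC2, and Hep3B tumours move from the lower left to the upper right for the sterol pair.

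Other ABC transporters, receptors and carriers give the setting in which the pumps moved. Their counts, here and in the lists that follow, stand beside the shares of all tested genes called. Those shares were 12.6% higher and 12.4% lower in HepG2, and 25.3% and 26.7% in Hep3B. HuH7 had 23.9% and 19.5%, and PLC/PRF/5 11.7% and 5.62%. A count near its share says nothing particular of a list. What part these genes had in the pump changes was not tested. Of 21 other ABC transporters tested, 7 rose and 7 fell in Hep3B and likewise in HuH7, against 1 and 3 in HepG2 and 2 and 2 in PLC/PRF/5. In Hep3B the lipid transporter ABCA7 rose from 8.92 ± 0.43 (SD, n = 3) to 47.3 ± 12.2 CPM (SD, n = 4), and ABCC6, a liver pump involved in ATP release, from 52.2 to 208 CPM. In HuH7 the cholesterol transporter ABCG1 fell from 44.5 to 13.0 CPM and the peroxisomal transporter ABCD3 from 75.3 to 24.7 CPM. Of 17 receptors and factors known to control ABC genes, 10 rose and 2 fell in Hep3B, with a median of 0.78. The same counts were 6 and 3 for HepG2, 4 and 3 for HuH7, and 4 and 0 for PLC/PRF/5. NR0B2, the bile acid responsive repressor SHP, rose in Hep3B from 408 to 4840 CPM (SD 3394 among its tumours), and PPARA, the fatty acid receptor, from 10.1 to 106 CPM. NR1H4, the bile acid receptor FXR, fell in HuH7 from 27.6 to 1.11 CPM. AHR, the dioxin receptor, fell in HepG2 from 94.4 to 17.2 CPM.

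Targets of NRF2, the factor that answers oxidative stress and drives several ABCC genes, fell in 9 of 14 in HepG2, 11 of 14 in HuH7 and 7 of 14 in PLC/PRF/5, and none of the 14 rose in these lines. In Hep3B 2 rose and 4 fell. The quinone reductase NQO1 fell in HuH7 from 305 to 9.36 CPM (-5.05, limma adjusted p = 1.98e-10). The aldo-keto reductase AKR1B10 fell in HepG2 from 29.1 to 1.08 CPM, and its relative AKR1C1 rose in Hep3B from 3.19 to 42.7 CPM. HMOX1, heme oxygenase, rose in Hep3B from 194 to 1819 CPM, with an SD of 2142 among the tumours, and its call was lost with the line fitted alone (adjusted p = 0.0557). ABCC2, ABCC3 and ABCC4, which NRF2 is known to induce, all fell in HepG2. In HuH7 ABCC2 and ABCC4 fell and ABCC3 rose, and in PLC/PRF/5 ABCC3 and ABCC4 fell. In Hep3B ABCC2 rose and ABCC4 fell. ABCC1 fell in HepG2 and Hep3B and was not called in HuH7 or PLC/PRF/5. Whether NRF2 had a part in any of these pump changes was not tested.

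The partners of sterol efflux, 18 tested, fell in 11 and rose in 2 in HuH7, the line in which ABCA1 fell. In HepG2 2 rose and 5 fell, in Hep3B 4 and 5, and PLC/PRF/5 had 4 and 2. APOA2, a protein of high-density lipoprotein, fell in HuH7 from 1421 to 60.5 CPM. APOA1, the acceptor of ABCA1 lipid, rose in Hep3B from 751 to 17006 CPM, and LPCAT3, a phospholipid remodelling enzyme, fell there from 42.9 to 12.4 CPM. APOA1 was also called in PLC/PRF/5, from 0.459 to 229.9 CPM, a difference that is 0.656% of the HepG2 tumour level and 1.35% of the Hep3B tumour level, below and above the quartiles given for genes at 0 reads in its cultures.

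Uptake carriers of the blood side, 8 tested, rose in 5 and fell in none in Hep3B, and fell in 5 and rose in 1 in HuH7. HepG2 had 3 higher and 1 lower and PLC/PRF/5 2 and 2. The organic anion carrier SLCO2B1 rose in Hep3B from 2.90 to 35.4 CPM and fell in HuH7 from 39.0 to 20.4 CPM, and the HuH7 change of -1.08 was just called (adjusted p = 0.0417). That call was lost with edgeR, with no filter and with the line fitted alone (adjusted p = 0.0706, 0.0558 and 0.127), and without any 1 culture, tumour 2 or tumour 3 (-0.65 without tumour 3). SLC22A3, an organic cation carrier, rose in Hep3B from 20.0 to 142 CPM, and SLC22A9 fell in HuH7 from 74.0 to 21.7 CPM. Of 15 genes that anchor pumps at the canaliculus or carry them there, 1 rose and 3 fell in HepG2, 5 rose and 3 fell in Hep3B and in HuH7, and 3 rose and 1 fell in PLC/PRF/5. In Hep3B the recycling motor MYO5B rose from 39.6 to 164 CPM while the recycling GTPase RAB11A fell from 36.6 to 4.56 CPM and the flippase subunit TMEM30A from 37.3 to 7.86 CPM. The scaffold SLC9A3R2 rose in HuH7 from 103 to 363 CPM. Of 7 tested drug metabolism targets of the receptors PXR and CAR, 3 rose and none fell in Hep3B and in HuH7, 1 rose and 2 fell in HepG2, and 1 fell in PLC/PRF/5. The carboxylesterase CES2 rose in HepG2 from 11.1 to 27.0 CPM.

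The genes most like each pump over the 28 libraries were found by Pearson's r of log2(CPM + 1) among genes averaging at least 10 CPM. The libraries share lines and conditions, so r describes these 8 groups and carries no test. For the sterol pair they were C4A (0.982) and ITIH3 (0.981) for ABCG5, and PPARA (0.955) and SLC17A2 (0.953) for ABCG8. ABCA1 was most like SMO (0.981) and APOC2 (0.976). For the canalicular pumps they were CD7 (0.961) and SHANK2 (0.959) for ABCB1, CEACAM1 (0.924) and PROC (0.911) for ABCB4, ENTPD6 (0.964) and VSNL1 (0.957) for ABCC2, and TAP2 (0.965) and LYPLA1 (0.955) for ABCG2. For the remaining conjugate pumps they were SLC7A6 (0.892) and STAM (0.876) for ABCC1, ESRP2 (0.906) and SQSTM1 (0.905) for ABCC3, and PMAIP1 (0.955) and NHP2 (0.948) for ABCC4. Among the pumps themselves, r was 0.903 for ABCB1 with ABCB4, 0.891 for ABCG5 with ABCG8 and 0.874 for ABCC2 with ABCA1, and -0.796 for ABCC4 with ABCA1 and -0.59 for ABCC2 with ABCC3.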

How the data were processed

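Libraries were made from 500 ng of RNA with DriverMap targeted amplicons, per the labels' protocols. The submitters' processing notes name hg38 as the build. No source used here gives the aligner, the counting or filters. The deposited values are a signal that the authors scaled to a sum of 500000 per library. Equal steps between low values gave back whole reads: in every library at least 99.9684% of values were whole to within 0.01 reads, with no departure above 0.114. 1 damaged cell, KRT18 in replicate 2 of the PLC/PRF/5 tumours, was set to what its library's total lacked.

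limma 3.58.1 (R 4.3.3, trended variance) was fitted to log2(CPM + 1) after TMM scaling in 1 model of 8 groups with 20 residual degrees of freedom. edgeR's filterByExpr (at least 10 reads) kept 13100 of 18961 genes. P values are two-sided and adjusted by Benjamini-Hochberg per contrast. The steps were tested on simulated data.

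Named genes are the 10 pumps, the 2 highest and 2 lowest called genes of each of 7 gene lists (averaging at least 10 CPM, any line), and the 2 genes most like each pump. Members and lists were chosen with earlier results of these data known.

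Alternatives were edgeR 4.0.16 quasi-likelihood and DESeq2 1.42.0 Wald tests on recovered reads, DESeq2 size factors, total counts alone, pseudocounts of 0.25 and 5 CPM, no filter, at least 10 CPM in 3 libraries, each line alone, the replicate number as a block, removal of GC and amplicon length trends, and leaving out each library or the 4 in ovo libraries labelled replicate 3.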

Additional observations from a re-analysis of the deposited data

Results flagged for a closer look

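ABCA1 in HepG2 tumours held 1 library far from the others: replicate 3, at 36.9 CPM, lay away from the remaining tumours by 0.968 of the group's range. ABCA1 in HuH7 tumours did the same, with replicate 3 at 6.52 CPM and a gap of 0.861 of the range. The limit for 4 values is 0.829; of the 40 tumour groups examined, chance alone passes it in about 1 of 20.

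The responses of 9 pumps differed between the lines by the limma interaction test. The adjusted p was 0.000466 for ABCB1, 0.00034 for ABCB4, 7.81e-05 for ABCC1, 2.09e-06 for ABCC2, 4.36e-15 for ABCC3, 0.000434 for ABCG2, 3.33e-09 for ABCG5, 4.15e-14 for ABCG8 and 0.00947 for ABCA1.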

How the results depend on the processing

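Over single pump results, 1035 of 1135 alternative values kept direction and call, 47 lost the call, 36 gained it and 17 turned direction, all counted over the alternatives run. With total counts alone, Hep3B gave ABCB1 at -0.397, ABCC2 at -0.0893, ABCC3 at -0.558 and ABCA1 at -0.952, and HuH7 gave ABCB4 at -0.0247. ABCA1 in Hep3B, 0.0307 as reported, was also at -0.0037 with no filter, -0.0425 with at least 10 CPM in 3 libraries, -0.121 with the replicate block and -0.217 to 0.42 with single libraries left out. ABCC1 in HuH7, -0.0352 as reported, was at 0.0112 with edgeR, 0.0133 with DESeq2, 0.071 without the in ovo libraries numbered 3 and -0.22 to 0.0883 with single libraries left out. Of these turns only ABCC2 was called as reported and only ABCC3 under the alternative. Over the named genes of the lists, 466 of 475 values kept direction and call, and 9 lost the call: 8 for SLCO2B1 in HuH7 and 1 for HMOX1 in Hep3B. That scaling also gave 1205 genes higher and 6820 lower in Hep3B, against 3309 and 3499, and 2 pumps higher. Pumps called higher in HepG2 became 2 with a pseudocount of 5 CPM or without the in ovo libraries numbered 3, and 3 with GC and length trends removed. With each line fitted alone, 2 pumps were higher in Hep3B and 2 lower in HuH7, where 1368 genes were lower. In PLC/PRF/5, pumps called higher numbered 4 with edgeR, 3 with DESeq2, each line alone, no libraries numbered 3 or trends removed, 2 at a pseudocount of 0.25 CPM and 0 at 5 CPM; 1 was lower at 0.25 CPM and with no filter. PLC/PRF/5 genes called lower were 1114 with DESeq2, 1202 with total counts, 1338 with the line alone, 1452 without the libraries numbered 3 (with 2340 higher) and 1224 with trends removed. Leaving out single PLC/PRF/5 libraries gave 1 to 2 pumps higher, 1 to 2 lower, 913 to 1597 genes higher and 441 to 808 lower. The causes were not tested. The labels do not say whether the replicate numbers pair the samples. The 12 same-numbered pairs correlated at -0.0967 to 0.457, and 4 exceeded 0.1. In HepG2 (0.44) and PLC/PRF/5 (0.457) the highest pair was a same-numbered one, and in Hep3B and HuH7 (0.154 each) it was not. Such correlations cannot decide whether samples were paired. With the replicate block, 1 pump call was lost, ABCB1 in HuH7 (0.708, limma adjusted p = 0.0539), and the pump counts were 2 higher and 4 lower there. Depth limits ABCB1, ABCB4, ABCG5 and ABCG8 in PLC/PRF/5 and ABCG5 in HuH7, which lie near the 3-read floor. Levels near or below that floor also mark the PLC/PRF/5 cultures for ABCA1, the HuH7 tumours for ABCG2, and the Hep3B cultures for ABCG5 and ABCG8.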
